A study of Rattus norvegicus with 6 samples.

Results

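The core circadian clock of the choroid plexus was examined through 7 genes, *Arntl*, *Clock*, *Npas2*, *Per1*, *Per3*, *Dbp* and *Tef*, in RNA of rat lateral ventricular choroid plexus at embryonic day 15 (E15) and in the adult. They were taken from 10 clock gene symbols by name, wherever the authors' table of genes they had called between the ages gave a row to that symbol, and their counts were read by gene identifier from a table of 29479 identifiers. Their identifiers are ENSRNOG00000014448 (*Arntl*), ENSRNOG00000002175 (*Clock*), ENSRNOG00000013408 (*Npas2*), ENSRNOG00000007387 (*Per1*), ENSRNOG00000018413 (*Per3*), ENSRNOG00000021027 (*Dbp*) and ENSRNOG00000019383 (*Tef*). The other 3 symbols, *Per2*, *Cry1* and *Cry2*, had no such row and were not analysed here. A name therefore comes only with a gene that had already been called on these same pools, so every count of called clock genes is a description and supports nothing by itself.

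All animals were untreated Sprague-Dawley rats, embryos at E15 or non-pregnant adults of 6 weeks. Both lateral ventricular plexuses of 10 animals made 1 pool, 3 pools were sequenced at each age, and P-values below measure the spread between such pools, not between animals. Although the title of the series speaks of epithelial cells, the plexus was taken whole and each pool also held stroma, vessels and blood. The time of day of collection is not given in the sources used here. Libraries held 17875089, 18901272 and 18524987 counts at E15 (replicates 1 to 3) and 18511712, 19204440 and 18421472 counts in the adult.

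The circadian clock is a feedback loop of transcription that runs in nearly every cell. ARNTL (also called BMAL1) pairs with CLOCK or with its relative NPAS2 and switches on genes through E-box sequences, among them the *Per* and *Cry* genes, whose proteins return to the nucleus and repress that pair, and the output factors *Dbp* and *Tef*. The choroid plexus is known to hold a strong clock of its own in adult rodents.

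Of the 7 clock genes, 5 were enriched in the adult plexus and 2 at E15. The activators *Arntl*, *Clock* and *Npas2* and the output factors *Dbp* and *Tef* were higher in every adult pool than in any E15 pool, from 2.82-fold (*Arntl*) to 17.6-fold (*Npas2*). The repressors *Per1* and *Per3* went the other way, 2.41-fold and 1.81-fold higher at E15. Ratios of clock genes within a library, which do not depend on how libraries are scaled, moved up to 6.64-fold between the ages. The ratio that moved most, *Per1*/*Arntl*, combines genes that already differed in opposite directions and adds no separate evidence.

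All 7 genes exceeded the limit of more than 10 counts in all that a gene needed for testing. A gene is called where the quasi-likelihood F test of edgeR gives an adjusted p below 0.05, with P-values adjusted by Benjamini and Hochberg over the 16643 genes tested. The 2 clock genes called higher at E15 and the 5 called higher in the adult stand beside 34.7% and 29.3% of all genes tested, and beside 50.6% and 42.2% of the 9958 tested genes that carry a name. Normalized counts of the ages did not overlap for any of the 7, which held for 70.1% of all genes tested. The median log2 fold change (E15 minus adult) of the 7 was -1.52, against 0.14 over all genes tested and 0.73 over those with a name. Because these are bulk samples, fewer cells of a type and less RNA per cell cannot be told apart in any of the differences below.

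E15 replicate 1 stood apart from the other E15 pools. Its Spearman correlation over genes was 0.979 with replicate 2 and 0.983 with replicate 3, while replicates 2 and 3 reached 0.996. Chi-square per degree of freedom was 59.6 and 49.7 for its pairs and 5.63 for replicates 2 and 3. Adult pools correlated at 0.986 to 0.988. Without E15 replicate 1 each clock gene kept its direction and its call. *Per1* was then 2.66-fold and *Per3* 2.002-fold higher at E15. *Arntl* was 2.96-fold, *Clock* 3.86-fold, *Npas2* 18.2-fold, *Dbp* 2.61-fold and *Tef* 2.995-fold higher in the adult.

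The adult libraries were also filled by fewer transcripts. *Ttr*, which encodes the thyroxine carrier transthyretin, took 2.66% to 3.31% of counts at E15 and 14.4% to 17.5% in the adult. Counts were therefore normalized with TMM factors, and a normalized count below is a raw count scaled to a common effective library of 18568563. With total counts in place of TMM, the median of the fitted log2 changes over the genes tested rose by 0.80, from 0.14 to 0.94. Genes called then changed from 5773 higher at E15 and 4879 higher in the adult to 9799 and 2292, and with totals that leave out the 10 genes of highest mean count to 8071 and 3196. All 7 clock genes kept direction and call on total counts, at 4.204-fold (*Per1*) and 3.17-fold (*Per3*) higher at E15 and 1.61-fold (*Arntl*), 2.07-fold (*Clock*), 10.1-fold (*Npas2*), 1.65-fold (*Dbp*) and 1.785-fold (*Tef*) higher in the adult.

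*Arntl* encodes the partner that the activating pair cannot do without. Its raw counts were 370, 334 and 344 in the E15 pools, compared with 671, 492 and 546 in the adult pools. Normalized, these were 292, 248 and 260.0 at E15 against 916, 616 and 723 in the adult. Every adult pool lay above every E15 pool, and adult replicate 1 was the highest of the 6. The means were 267 ± 22.7 (SD, n = 3) at E15 and 751 ± 152 (SD, n = 3) in the adult. *Arntl* was enriched 2.82-fold in the adult, a log2 change of -1.49 (SE 0.168; edgeR quasi-likelihood test, Benjamini-Hochberg adjusted p = 4.04e-05).

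*Clock* encodes the partner of ARNTL that also acetylates histones. The E15 pools gave 316, 271 and 286 raw counts for it and the adult pools 516, 563 and 756. On the normalized scale the E15 pools held 249.3, 201 and 216 and the adult pools 704, 705 and 1001. Adult replicate 3 stood above the other adult pools, which were nearly equal, and the ages did not overlap. From a mean of 222 ± 24.6 (SD, n = 3) at E15 to 803 ± 171 (SD, n = 3) in the adult the fitted difference was 3.61-fold (log2 change -1.85, SE 0.176; edgeR quasi-likelihood test, Benjamini-Hochberg adjusted p = 1.30e-05).

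*Npas2*, which can take the place of CLOCK beside ARNTL, showed the largest difference of the 7. It had 76, 68 and 78 raw counts at E15 against 804, 771 and 702 in the adult. Normalized counts were 59.9, 50.5 and 59.0 at E15 against 1097, 965 and 929 in the adult. The pools of an age lay close together, with a coefficient of variation of 9.23% at E15 and 8.87% in the adult, and the gap between the ages was many times that spread. Enrichment in the adult was 17.6-fold (log2 change -4.14, SE 0.151; edgeR quasi-likelihood test, Benjamini-Hochberg adjusted p = 3.65e-08). In the RefSeq annotation of GRCr8, uncharacterized gene records overlap the spans of *Npas2* and *Clock* and none overlaps the other 5 genes, and their part in the counts was not tested.

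*Per1*, a repressor of the loop that also responds rapidly to hormones and other signals, was the clock gene most enriched at E15. Raw counts were 1072, 1638 and 1583 at E15 against 312, 335 and 385 in the adult. Normalized counts were 846, 1216 and 1196 at E15 against 426, 419 and 509.6 in the adult. E15 replicate 1 was the lowest E15 pool but still lay above each adult pool. With means of 1086 ± 208 (SD, n = 3) and 452 ± 50.4 (SD, n = 3), *Per1* was enriched 2.41-fold at E15 (log2 change 1.27, SE 0.167; edgeR quasi-likelihood test, Benjamini-Hochberg adjusted p = 0.000119).

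*Per3*, the family member that the core oscillator needs least, moved in the same direction. With TMM factors its difference was the smallest of the 7, whereas on total counts those of *Arntl*, *Dbp*, *Tef* and *Clock* were smaller. The 3 E15 pools held 281, 432 and 401 raw counts and the 3 adult pools 108, 113 and 134. After normalization the E15 values were 222, 321 and 303 and the adult values 147, 141 and 177. Again E15 replicate 1 was the low pool of its age and the nearest to the adult values, without overlap. The enrichment at E15 was 1.81-fold (log2 change 0.86, SE 0.202; edgeR quasi-likelihood test, Benjamini-Hochberg adjusted p = 0.00439), from a mean of 282 ± 52.8 (SD, n = 3) to 155 ± 19.3 (SD, n = 3).

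*Dbp* encodes a D-box activator whose transcript has one of the widest daily swings known in peripheral tissues. It was counted 315, 463 and 455 times at E15 against 478, 938 and 648 times in the adult. Normalized counts were 248, 344 and 344 at E15 against 652, 1174 and 858 in the adult. Replicate 1 was the lowest pool at each age, and *Dbp* had the widest spread between adult pools of the 7 genes, a coefficient of variation of 29.4%. The means of 312 ± 55.0 (SD, n = 3) and 895 ± 263 (SD, n = 3) differed 2.87-fold in favour of the adult (log2 change -1.52, SE 0.223; edgeR quasi-likelihood test, Benjamini-Hochberg adjusted p = 0.000246).

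*Tef* encodes a second activator of the same PAR bZIP family. Its raw counts were 597, 727 and 703 at E15 against 898, 1457 and 1320 in the adult. The normalized values were 471, 539.5 and 531 at E15 against 1225, 1823 and 1747 in the adult. Adult replicate 1 was well below the other adult pools, as for *Dbp*, and all adult pools lay above all E15 pools. *Tef* was enriched 3.11-fold in the adult (log2 change -1.64, SE 0.163; edgeR quasi-likelihood test, Benjamini-Hochberg adjusted p = 1.76e-05), with means of 514 ± 37.5 (SD, n = 3) and 1599 ± 326 (SD, n = 3).

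**Figure D1:**
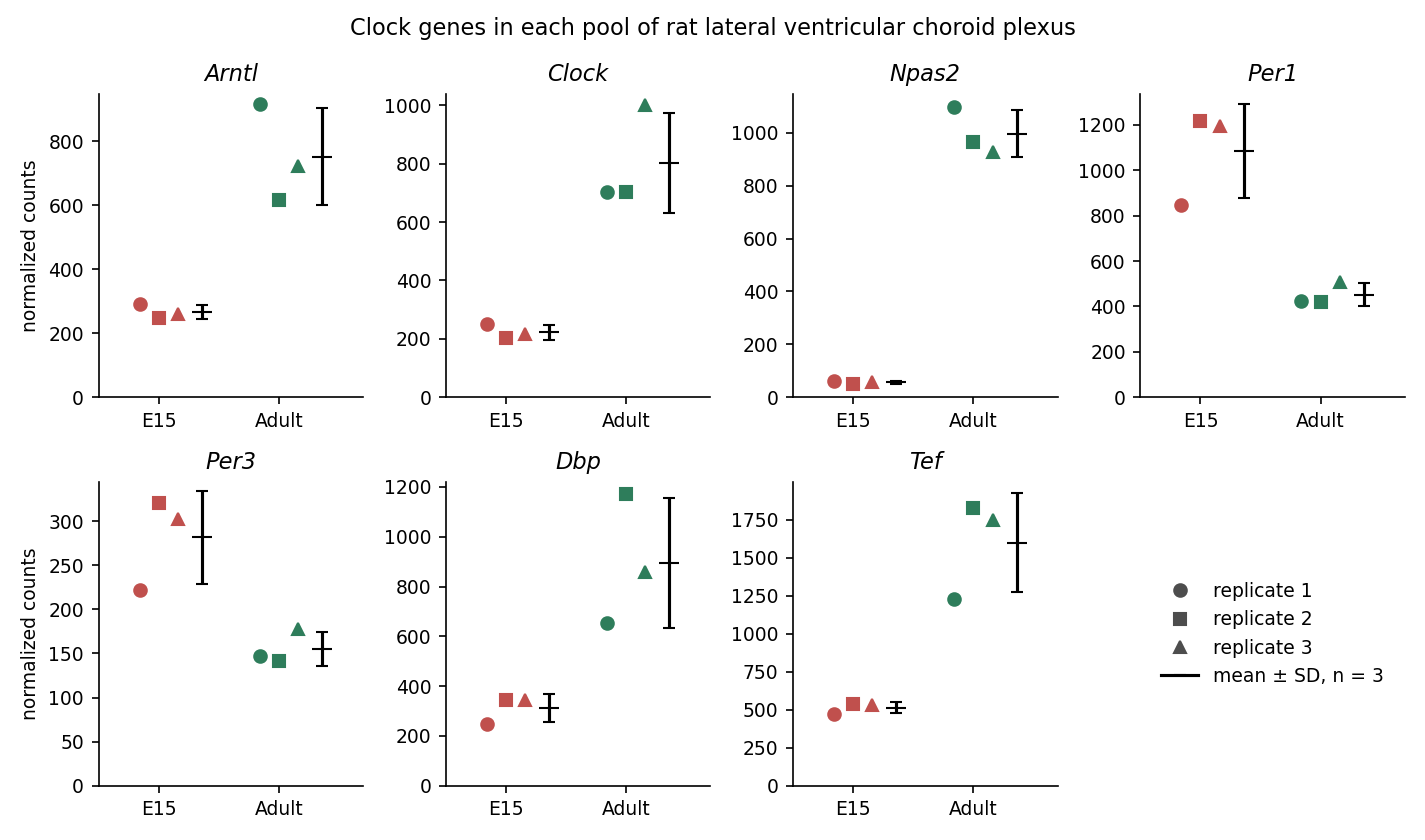
Normalized counts (linear axes from 0) of the 7 clock genes in each pool, with E15 in red, adult in green, a marker shape for each replicate number and the mean ± SD (n = 3) in black. *Arntl*, *Clock*, *Npas2*, *Dbp* and *Tef* sit higher in the adult and *Per1* and *Per3* higher at E15, with no overlap between the ages in any panel.

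Promoter windows from RefSeq (build GRCr8, 250 bases before to 50 bases after an annotated start) were searched for clock motifs, because several clock genes moved together. All 7 clock genes matched, *Arntl* under its current symbol *Bmal1* and *Clock* with 2 starts, as did 10 of 11 other loop genes described later, all but *Csnk1d*. The letters searched on both strands were CACGTG (E-box), CACGTT (a variant E-box), TTATGTAA and TTACGTAA (D-boxes), TAGGTCA (part of the ROR element) and TGACGTCA (cyclic AMP response element). Among all 33469 windows, 6.42% held CACGTG, 4.83% CACGTT, 0.893% TTATGTAA, 0.12% TTACGTAA, 2.63% TAGGTCA and 1.83% TGACGTCA. Of the 7 clock genes, *Tef* held CACGTG, 198 bases before its start, and *Arntl* held TAGGTCA, 16 bases before its start. No match was found in the windows of *Clock*, *Npas2*, *Per1*, *Per3* and *Dbp*, which says only that these letters are not in those windows.

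Shown 5′ to 3′ on the strand of the gene are the windows of the 2 clock genes with a match and of *Npas2*, which had the largest difference of the 7 and no match. Capitals mark the motif letters. They are *Arntl* at chr1:176766078-176766377, *Tef* at chr7:115206577-115206876 and *Npas2* at chr9:48959315-48959614, all on the plus strand.
Arntl: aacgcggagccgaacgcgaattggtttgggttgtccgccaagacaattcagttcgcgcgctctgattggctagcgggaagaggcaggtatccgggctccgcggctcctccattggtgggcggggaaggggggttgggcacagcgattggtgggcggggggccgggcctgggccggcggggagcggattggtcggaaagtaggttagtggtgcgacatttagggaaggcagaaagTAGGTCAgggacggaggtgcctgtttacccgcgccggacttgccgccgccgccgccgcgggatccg
Tef: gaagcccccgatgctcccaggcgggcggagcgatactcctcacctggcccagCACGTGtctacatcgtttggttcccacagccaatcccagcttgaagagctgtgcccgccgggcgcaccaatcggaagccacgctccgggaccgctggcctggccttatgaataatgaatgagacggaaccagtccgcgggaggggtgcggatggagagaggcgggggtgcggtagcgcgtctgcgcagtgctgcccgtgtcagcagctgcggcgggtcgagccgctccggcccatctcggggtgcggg
Npas2: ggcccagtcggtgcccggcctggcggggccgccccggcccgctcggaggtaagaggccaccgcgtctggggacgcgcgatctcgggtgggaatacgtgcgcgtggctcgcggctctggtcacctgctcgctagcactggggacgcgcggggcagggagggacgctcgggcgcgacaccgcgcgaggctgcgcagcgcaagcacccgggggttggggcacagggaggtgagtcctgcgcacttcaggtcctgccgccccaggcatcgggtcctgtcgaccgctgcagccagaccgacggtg

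The spread between pools of an age was itself unequal among the clock genes. At E15 the coefficient of variation ran from 7.29% (*Tef*) to 19.18% (*Per1*), and in the adult from 8.87% (*Npas2*) to 29.4% (*Dbp*). To compare pools, the normalized count of a gene in a pool was divided by the mean of the other pools of that age. In E15 replicate 1 this ratio was 1.15 for *Arntl*, 1.19 for *Clock* and 1.10 for *Npas2*. The same pool gave 0.723 for *Dbp*, 0.88 for *Tef*, 0.701 for *Per1* and 0.711 for *Per3*. That pool was thus the highest E15 pool for the 3 activators and the lowest for the output factors and the *Per* genes. Of loop genes described later, *Nr1d1* was highest there (1.27), *Bhlhe40* was in the middle (1.09) and *Nfil3* was lowest (0.97). E15 replicate 1 also stood apart from the other E15 pools over all genes. For *Npas2* it lay close to E15 replicate 3 (1.07), and E15 replicate 2 was the low pool (0.85).

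In adult replicate 1 *Arntl* stood at 1.37 and *Npas2* at 1.16 times the mean of the other adult pools, whereas *Dbp* was at 0.642 and *Tef* at 0.686. *Per1* (0.917) and *Per3* (0.925) were only slightly low there, and *Clock* was also low, at 0.826. In adult replicate 2 *Dbp* reached 1.55 and *Tef* 1.23 while *Arntl* was at 0.752. Adult replicate 3 was the highest adult pool for *Clock* (1.42), *Per1* (1.21) and *Per3* (1.23). In each age the pool with the most *Arntl* was therefore the pool with the least *Dbp* and *Tef*, and the pool with the least *Arntl* had the most *Tef*. With 3 pools an age no test was made of this. The part of cell types whose markers differed between pools was not tested either, and the time of day at which each pool was collected cannot be set beside it.

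**Figure D2:**
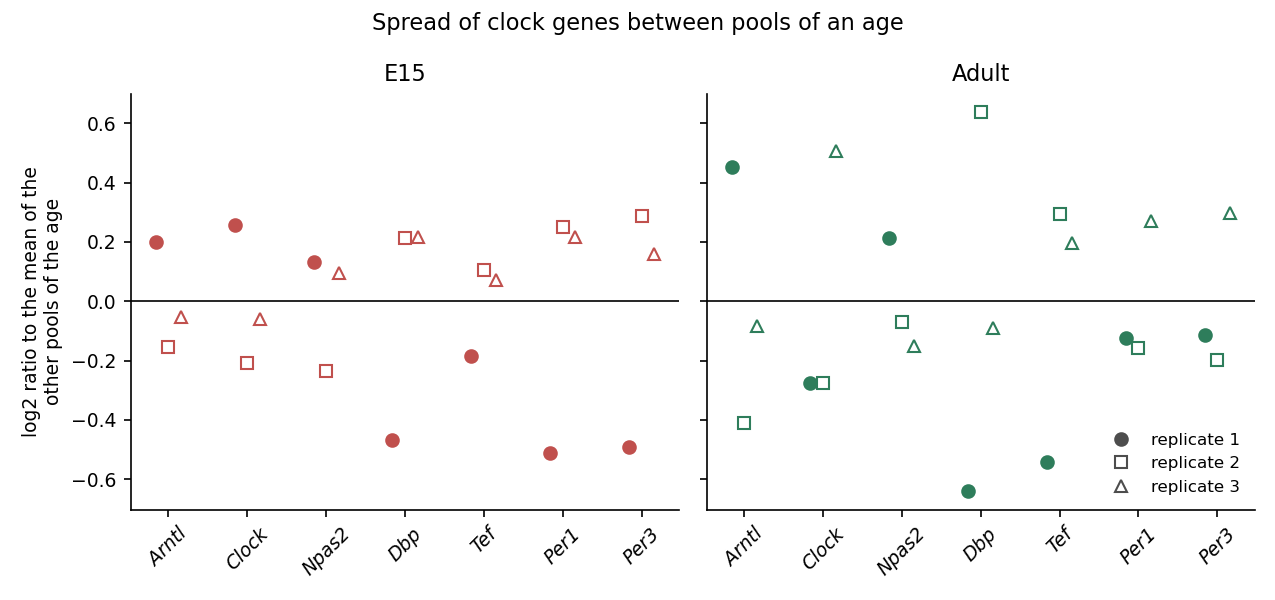
Spread of the 7 clock genes between pools of an age, as the log2 ratio (vertical axis) of the normalized count in a pool to the mean of the other pools of its age, with replicate 1 filled. Replicate 1 is above 0 for *Arntl* and below 0 for *Dbp* and *Tef* at both ages, while *Clock* and *Npas2* do not share the same order of pools in the adult.

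Ratios of raw counts of 2 clock genes in the same library were compared between the ages, since library scaling and gene length cancel from that comparison. The level of such a ratio still depends on transcript length, so only its change is read. Of 10 pairs planned, 6 could be computed, and each was tested with a two-sided exact permutation test over the 6 libraries, in which 3 against 3 pools cannot give a p below 0.10. The *Per1*/*Arntl* ratio was 2.90, 4.90 and 4.602 in the E15 pools, compared with 0.465, 0.681 and 0.705 in the adult pools. It was 6.64-fold higher at E15 (exact permutation p = 0.10, adjusted over the 6 pairs p = 0.20). Every E15 pool lay above every adult pool in this ratio. That outcome, and with it the smallest possible p, was fixed by the normalized counts. *Per1* and *Arntl* already separated the ages there, in opposite directions, so the ratio describes the same counts again.

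The *Per3*/*Arntl* ratio behaved alike, at 0.76, 1.29 and 1.17 at E15 against 0.161, 0.23 and 0.245 in the adult. This was a 5.02-fold difference (exact permutation p = 0.10, adjusted p = 0.20). Its separation was likewise fixed by the opposite directions of *Per3* and *Arntl*. In both ratios replicate 1 was the lowest pool at each age.

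Between the alternative partners of ARNTL, the *Clock*/*Npas2* ratio was 4.16, 3.99 and 3.67 at E15 against 0.642, 0.73 and 1.08 in the adult. The pools of the ages did not overlap and the ratio was 4.94-fold higher at E15 (exact permutation p = 0.10, adjusted p = 0.20). The balance of the partners was thus shifted toward *Npas2* in the adult, although *Clock* was itself enriched there.

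The other 3 ratios overlapped between the ages. *Dbp*/*Arntl* was 0.851, 1.39 and 1.32 at E15 against 0.712, 1.91 and 1.19 in the adult. Its mean log2 value was 0.21 ± 0.388 (SD, n = 3) at E15 and 0.23 ± 0.71 (SD, n = 3) in the adult (exact permutation p = 1.0, adjusted p = 1.0), so the difference between the ages was far smaller than the spread between pools. The sign of that difference changed without E15 replicate 1 or without adult replicate 2, where the E15 minus adult difference in log2 ratio was 0.21 and 0.34 in place of -0.02.

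*Tef*/*Dbp* was 1.90, 1.57 and 1.54 at E15 against 1.88, 1.55 and 2.04 in the adult (exact permutation p = 0.60, adjusted p = 0.72). *Clock*/*Arntl* was 0.854, 0.811 and 0.831 at E15 against 0.769, 1.14 and 1.39 in the adult (exact permutation p = 0.40, adjusted p = 0.60). The E15 pools agreed closely in this ratio (SD of the log2 ratio 0.037, n = 3), whereas the adult pools spread widely (SD 0.433, n = 3). A p that misses the threshold in so small a design does not show that these ratios were alike.

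**Figure D3:**
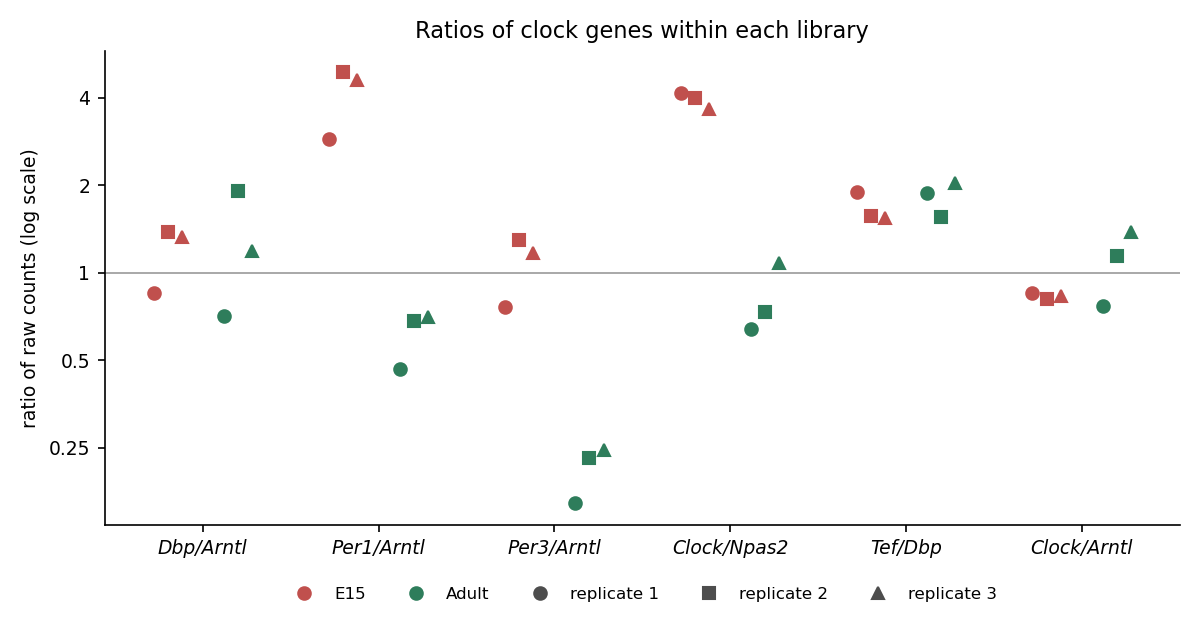
Ratios of raw counts of 2 clock genes within each library (log scale, vertical axis), with E15 in red, adult in green and a marker shape for each replicate number. The ages are apart for *Per1*/*Arntl*, *Per3*/*Arntl* and *Clock*/*Npas2* and overlap for *Dbp*/*Arntl*, *Tef*/*Dbp* and *Clock*/*Arntl*.

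Beyond the 7 genes, 29 further genes of the clock loop were listed, of which 17 carried a name. Of these, 9 were called higher at E15, 7 higher in the adult and 1 was not called, with a median log2 fold change of 0.55. The called shares, 52.9% and 41.2%, lie near the 50.6% and 42.2% of all tested genes with a name. As for the clock genes, a name came with an earlier call, so these counts only describe the list. Of the 17, 11 are described here, which are those called with an absolute log2 fold change above 1 together with *Csnk1d* and *Ciart*. The other 6, *Gsk3b*, *Btrc*, *Fbxw11*, *Nono*, *Id2* and *Rai1*, were called with an absolute log2 fold change below 1.

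The nuclear receptors of the accessory loop were enriched in the adult. *Nr1d1* encodes REV-ERBα, which represses *Arntl* through ROR elements. It was counted 97, 80 and 81 times at E15 against 745, 882 and 733 times in the adult, and was enriched 15.7-fold in the adult (log2 change -3.97, SE 0.154; edgeR quasi-likelihood test, Benjamini-Hochberg adjusted p = 5.44e-08). Its span overlaps that of *Thra* in RefSeq, and reads from the shared stretch cannot be told apart here. *Rora*, which encodes the activator that competes with REV-ERBα for the same elements, gave 118, 84 and 103 counts at E15 against 310, 332 and 329 in the adult, a 5.46-fold enrichment in the adult (log2 change -2.45, SE 0.19; edgeR quasi-likelihood test, Benjamini-Hochberg adjusted p = 3.34e-06). Activator and repressor of *Arntl* were thus both higher in the adult, and neither overlapped between the ages.

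*Bhlhe40* encodes DEC1, which competes with the activating pair at E-boxes. Its counts were 67, 59 and 70 at E15 against 916, 1039 and 945 in the adult. The 25.4-fold enrichment in the adult was the largest difference among all clock genes named here (log2 change -4.67, SE 0.142; edgeR quasi-likelihood test, Benjamini-Hochberg adjusted p = 1.67e-08). The adult pools were tight, with a coefficient of variation of 2.27%. *Ppargc1a*, a coactivator of ROR proteins, had 174, 169 and 176 counts at E15 against 774, 844 and 826 in the adult and was enriched 8.10-fold there (log2 change -3.02, SE 0.122; edgeR quasi-likelihood test, Benjamini-Hochberg adjusted p = 6.46e-08).

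*Nfil3* encodes E4BP4, a repressor that binds the same D-boxes as DBP and TEF. It was counted 734, 820 and 774 times at E15 against 205, 233 and 175 times in the adult. *Nfil3* was enriched 2.21-fold at E15 (log2 change 1.14, SE 0.138; edgeR quasi-likelihood test, Benjamini-Hochberg adjusted p = 6.63e-05). The D-box repressor and the D-box activators *Dbp* and *Tef* thus differed between the ages in opposite directions, in all 6 pools.

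*Csnk1e* and *Csnk1d* encode kinases that phosphorylate PER proteins. *Csnk1e* had 1310, 1644 and 1740 counts at E15 against 224, 228 and 172 in the adult, a 4.36-fold enrichment at E15 (log2 change 2.12, SE 0.156; edgeR quasi-likelihood test, Benjamini-Hochberg adjusted p = 2.27e-06). *Csnk1d* had 6968, 8007 and 7488 counts at E15 against 2958, 3213 and 2727 in the adult, a 1.47-fold enrichment (log2 change 0.55, SE 0.0963; edgeR quasi-likelihood test, Benjamini-Hochberg adjusted p = 0.000746). Neither gene overlapped between the ages. RefSeq spans of other genes overlap those of *Csnk1d* (*Slc16a3*), *Rora*, *Timeless*, *Ppargc1a*, *Wdr5* and *Zfhx3*, and their part in the counts was not tested.

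*Timeless*, whose mammalian product serves chiefly at replication forks, was 7.29-fold higher at E15 (log2 change 2.87, SE 0.15), with 1573, 1859 and 1492 counts against 138, 144 and 110. *Wdr5*, which encodes a subunit of histone methyltransferases found with PER proteins, was 2.49-fold higher at E15 (log2 change 1.31, SE 0.134), with 1730, 1849 and 1986 counts against 357, 449 and 495. *Zfhx3*, which encodes a transcription factor of the central clock, was 3.05-fold higher at E15 (log2 change 1.61, SE 0.183), with 1089, 1917 and 1444 counts against 257, 299 and 288. Each of these genes lay above the adult values in all E15 pools. *Ciart*, a repressor of the activating pair that was matched through an older name, was near the limit of detection, with 16, 6 and 4 counts at E15 against 9, 14 and 13 in the adult, which overlapped. It was not called (log2 change -1.22, SE 0.632; edgeR quasi-likelihood test, Benjamini-Hochberg adjusted p = 0.118) except without E15 replicate 1 (log2 change -2.04, edgeR quasi-likelihood test, Benjamini-Hochberg adjusted p = 0.0187) or by the exact test of edgeR under 1 dispersion for all genes (Benjamini-Hochberg adjusted p = 0.011), and its adjusted p over all alternatives ran from 0.011 to 0.56.

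**Figure D4:**
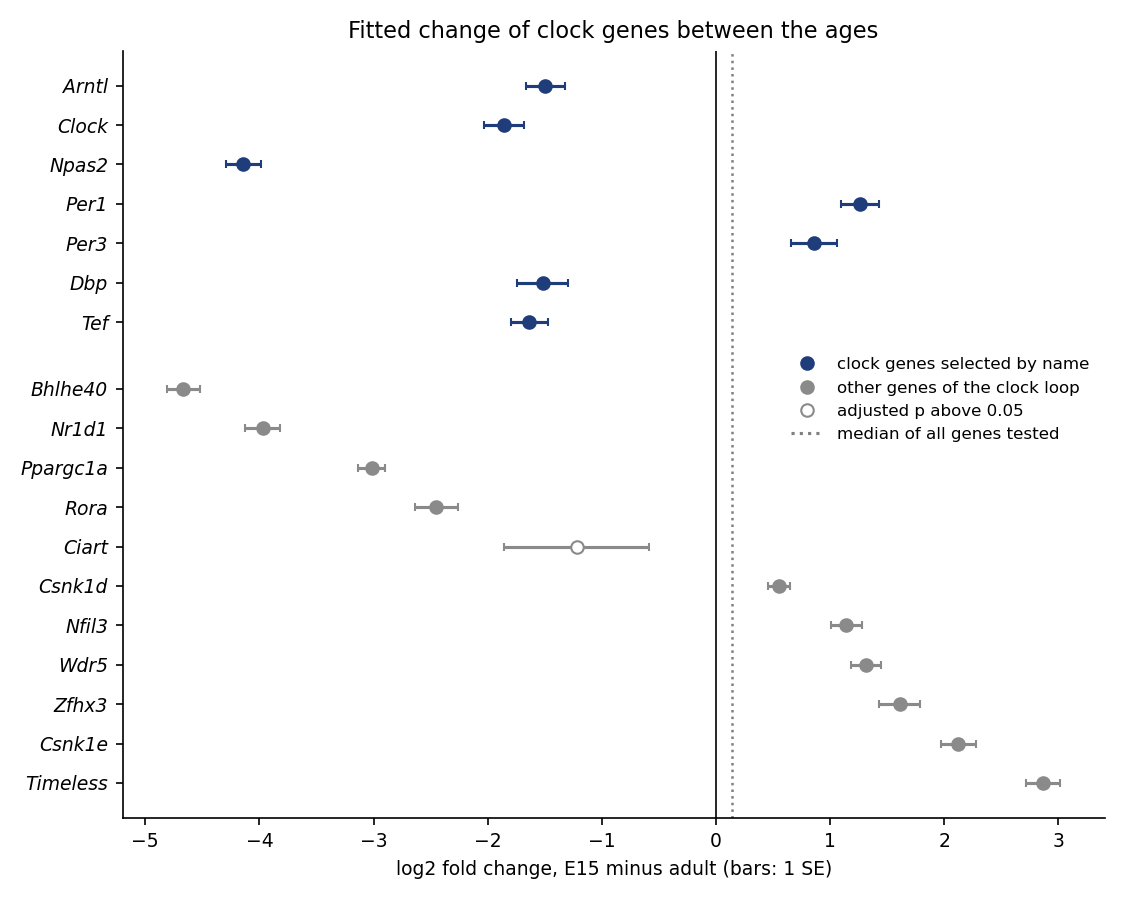
Fitted log2 fold change (E15 minus adult, horizontal axis, bars of 1 SE) of the 7 clock genes in blue and of 11 other genes of the clock loop in grey, with the dotted line at the median of all genes tested (0.14). *Bhlhe40*, *Npas2* and *Nr1d1* lie farthest toward the adult and *Timeless* farthest toward E15, and the open circle marks *Ciart*, which was not called.

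Among the other loop genes CACGTG was found in the windows of *Bhlhe40*, *Ciart* and *Nr1d1*. It lay 220 bases before the start of *Bhlhe40*, 93, 35 and 21 bases before the start of *Ciart*, and 191 bases before the downstream start of *Nr1d1*, whose upstream start had CACGTT at 174 bases. *Zfhx3* held a D-box and *Ppargc1a* TGACGTCA, and no matches overlapped. A match is a run of letters and not a site shown to be bound. Shown in the same way are *Bhlhe40* at chr4:143174200-143174499 (plus strand) and the downstream start of *Nr1d1* at chr10:84229405-84229704 (minus strand), the 2 loop genes with the largest adult enrichment.
Bhlhe40: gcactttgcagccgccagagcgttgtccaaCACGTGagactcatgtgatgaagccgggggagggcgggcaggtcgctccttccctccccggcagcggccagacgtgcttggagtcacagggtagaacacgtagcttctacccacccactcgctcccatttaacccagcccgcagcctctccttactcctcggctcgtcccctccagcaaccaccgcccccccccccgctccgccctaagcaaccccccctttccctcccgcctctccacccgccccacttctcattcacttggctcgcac
Nr1d1: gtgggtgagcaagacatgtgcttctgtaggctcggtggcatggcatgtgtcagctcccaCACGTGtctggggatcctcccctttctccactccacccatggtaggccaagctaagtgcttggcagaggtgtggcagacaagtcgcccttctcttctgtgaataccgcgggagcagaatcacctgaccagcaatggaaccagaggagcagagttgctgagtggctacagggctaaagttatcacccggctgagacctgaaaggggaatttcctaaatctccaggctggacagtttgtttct

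Genes whose pattern over the 6 libraries was closest to that of a clock gene were sought among 6965 named genes with a mean count above 100, by the Euclidean distance between log2 normalized counts centred on each gene's own mean. For *Per1* the nearest were *RGD1311307*, *Lztr1* and *Prkab1*, at distances of 0.126, 0.154 and 0.167, where the median gene was at 2.58. *Prkab1*, a subunit of AMP-activated protein kinase, had 1038, 1453 and 1452 counts at E15 against 282, 342 and 368 in the adult. For *Npas2* the nearest were *Slc29a4*, *Ephx4* and *Sult1a1*, at 0.175, 0.21 and 0.27, where the median gene was at 5.62. *Slc29a4*, the plasma membrane monoamine transporter, had 330, 271 and 331 counts at E15 against 3434, 3610 and 3060 in the adult, 18.6-fold more. No other clock gene was among these nearest genes.

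Genes under clock control in other tissues were few with a name, 4 of 10 listed. *Usp2*, a deubiquitinase, gave 386, 587 and 590 counts at E15 against 1061, 1064 and 1153 in the adult and was enriched 3.63-fold in the adult (edgeR quasi-likelihood test, Benjamini-Hochberg adjusted p = 6.98e-06). Its normalized counts were lowest in E15 replicate 1, like those of *Dbp*, *Tef* and *Cdkn1a*. In the adult they were lowest in replicate 2, where *Dbp* and *Tef* were highest. *Cdkn1a*, which encodes the cell cycle inhibitor p21, had 834, 1178 and 1176 counts at E15 against 1501, 1618 and 1287 in the adult, a 2.39-fold enrichment in the adult (edgeR quasi-likelihood test, Benjamini-Hochberg adjusted p = 5.01e-05). *Rgs16*, a regulator of G protein signalling, had 135, 135 and 147 counts at E15 and 1 count over the adult pools, a ratio of 242 (exact 95% interval 43.2 to 9589, counting error only). That count was in adult replicate 2, without which the fitted log2 change was 9.84, a value that depends on the prior count. *Avp*, which encodes vasopressin, had 1 count over all E15 pools, compared with 1, 8 and 12 in adult pools (ratio 36.2, exact 95% interval 5.82 to 1495), and without E15 replicate 2, which held that count, the fitted log2 change was -6.17 and likewise depends on the prior count. The list thus had 3 genes called higher in the adult and 1 at E15, beside 42.2% and 50.6% of all tested genes with a name.

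Receptors through which timing signals can reach the clock numbered 5 of 11 with a name, 3 called higher at E15 and 2 in the adult. Of all tested genes with a name, 50.6% and 42.2% were so called. *Opn3* (encephalopsin) had 188, 255 and 321 counts at E15 against 12, 27 and 27 in the adult. *Adcyap1r1*, the PACAP receptor, had 224, 134 and 215 against 9, 29 and 2, and was 8.40-fold higher at E15, or 19.0-fold without adult replicate 2. *Prokr1*, a prokineticin receptor, had 21, 14 and 23 counts at E15 and none in the adult, which is at least 11.2-fold higher against a floor of 3 counts over the adult pools. *Vipr2*, the VIP receptor of the central clock, had 64, 55 and 42 counts at E15 against 59, 88 and 72 in the adult and was called higher in the adult with TMM factors but not with total counts (edgeR quasi-likelihood test, Benjamini-Hochberg adjusted p = 0.00454 and 0.224; over all alternatives 1.16e-05 to 0.224). *Avpr1a* had 4, 2 and 2 counts at E15 against 5, 13 and 12 in the adult.

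*Per1* is also a target of glucocorticoids and of immediate early signalling, so both lists were read beside it. Their counts of called genes stand beside 50.6% (E15) and 42.2% (adult) of all tested genes with a name. Of 10 named glucocorticoid responsive genes out of 12, 4 were called higher at E15 and 6 in the adult (median log2 fold change -1.16). *Dusp1* and *Fkbp5* were 4.235-fold and 3.90-fold higher at E15, like *Per1*. Among the E15 pools *Fkbp5* was highest in replicate 1, where *Per1* and *Dusp1* were lowest. *Zbtb16* had 86, 114 and 135 counts at E15 against 0, 4 and 0 in the adult (45.7-fold). Without adult replicate 2 the other adult pools were at 0 for *Zbtb16*, and the fitted fold of 733 depends on the prior count. In the adult *Sgk1* was 11.7-fold, *Klf9* 13.3-fold, *Hsd11b1* 11.8-fold, *Pdk4* 5.82-fold and the receptor gene *Nr3c1* 2.43-fold higher. The fold of *Hsd11b1* rests on few counts, 9, 8 and 3 at E15 against 44, 53 and 43 in the adult. *Mt1a* was 2.05-fold higher in the adult but not called on total counts (log2 change -0.23; edgeR quasi-likelihood, Benjamini-Hochberg adjusted p = 0.381, over all alternatives 8.34e-05 to 0.381). Of 8 named immediate early genes out of 11, 6 were called higher at E15 and the other 2, *Junb* and *Egr2*, were not called (median log2 fold change 2.49). *Jun* had 742, 1396 and 1481 counts at E15 against 93, 104 and 98 in the adult, lowest in the same E15 pool as *Per1*. Normalized counts of *Fos*, *Junb*, *Ier2* and *Arc* were also lowest in that pool. Those of *Egr1* were lowest in E15 replicate 2, and those of *Atf3* and *Egr2* in E15 replicate 3. *Fos* had 89, 182 and 430 against 13, 9 and 6, and its 14.3-fold enrichment at E15 was 8.27-fold without E15 replicate 3. *Egr1* (5.72-fold), *Ier2* (5.53-fold), *Atf3* (3.998-fold) and *Arc* (6.18-fold, and 17.0-fold without adult replicate 2) were also higher at E15. The summed normalized counts of the immediate early list were 2123, 2784 and 3235 at E15 against 463, 543 and 459 in the adult. The part of these signals in the level of *Per1* was not tested.

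Markers of cell types also differed between the ages, some lists toward E15 and some toward the adult. Their part in the differences of the clock genes was not tested. Of all tested genes with a name, 50.6% were called higher at E15 and 42.2% in the adult, and every marker count below stands beside these shares. Sums of normalized counts are given in the order of replicates 1 to 3. The gene said to lead a list has its most counts over both ages together, and may not lead at each age. The epithelial list (8 of 10 with a name) was called higher in the adult for all 8, like the activators, *Dbp* and *Tef*, with a median log2 fold change of -2.79. Its sum was 457500, 533200 and 547400 at E15 against 4884000, 4084000 and 3986000 in the adult, led by *Ttr*. No epithelial marker was at 0 at either age. Proliferation genes (6 of 8 with a name) were all called higher at E15, like *Per1*, *Per3*, *Timeless* and *Csnk1e*, with sums of 10940, 9767 and 10890 against 364, 480.5 and 496, led by *Cdk1*.

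Markers of vessels, blood and stroma were read in the same way. Endothelium (7 of 9 with a name, 7 higher at E15, led by *Plvap*) summed to 7066, 9914 and 8620 at E15 against 911.5, 1263 and 1021 in the adult. Erythroid genes (6 of 7, 6 higher at E15, led by *Slc4a1*) summed to 7174, 9122 and 8099 against 136.5, 278 and 198.5. Mesenchyme (7 of 7, 5 higher at E15 and 2 in the adult, led by *Col3a1*) summed to 40520, 53790 and 46400 against 15350, 15940 and 15460. Macrophage genes (4 of 7, 2 higher at E15 and 1 in the adult, led by *Lyz2*) summed to 1723, 1927 and 1645 against 1676, 2082 and 2426. *Col3a1* had only 386, 870 and 495 raw counts in the adult pools, and *Lyz2* only 37, 54 and 40 in the E15 pools. Neither carried the sum of its list at that age. E15 replicate 1, which was low in *Per1*, *Per3*, *Dbp* and *Tef*, had the lowest endothelial, erythroid and mesenchymal sums of the E15 pools. Its epithelial and ependymal sums were also the lowest. Its proliferation, developing neuron, neural progenitor, adult neuron and astrocyte sums were the highest of the E15 pools.

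Neural lists were summed likewise. Developing neuron genes (8 of 8, 8 higher at E15, led by *Tubb3*) summed to 4731, 1536 and 3487 at E15 against 136.5, 435.5 and 122 in the adult, with *Neurod6* and *Nhlh1* at 0 in the adult. Neural progenitor genes (6 of 7, 6 higher at E15, led by *Lhx2*) summed to 3241, 1136 and 2411 against 480.3, 457 and 394. These sums were highest in E15 replicate 1 and lowest in E15 replicate 2 among the E15 pools. Adult neuron genes (5 of 7, 1 higher at E15 and 3 in the adult, led by *Syt1*) summed to 259.5, 139 and 229.8 against 318, 663 and 271. Astrocyte genes (4 of 6, 2 higher at each age, led by *Gja1*) summed to 10960, 9373 and 8481 against 2960, 6246 and 2682, and ependymal genes (2 of 6, 1 higher at each age, led by *Ccdc153*) to 237, 274 and 272 against 50.5, 76.3 and 33.1, with *Tmem212* at 0 at E15.

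**Figure D5:**
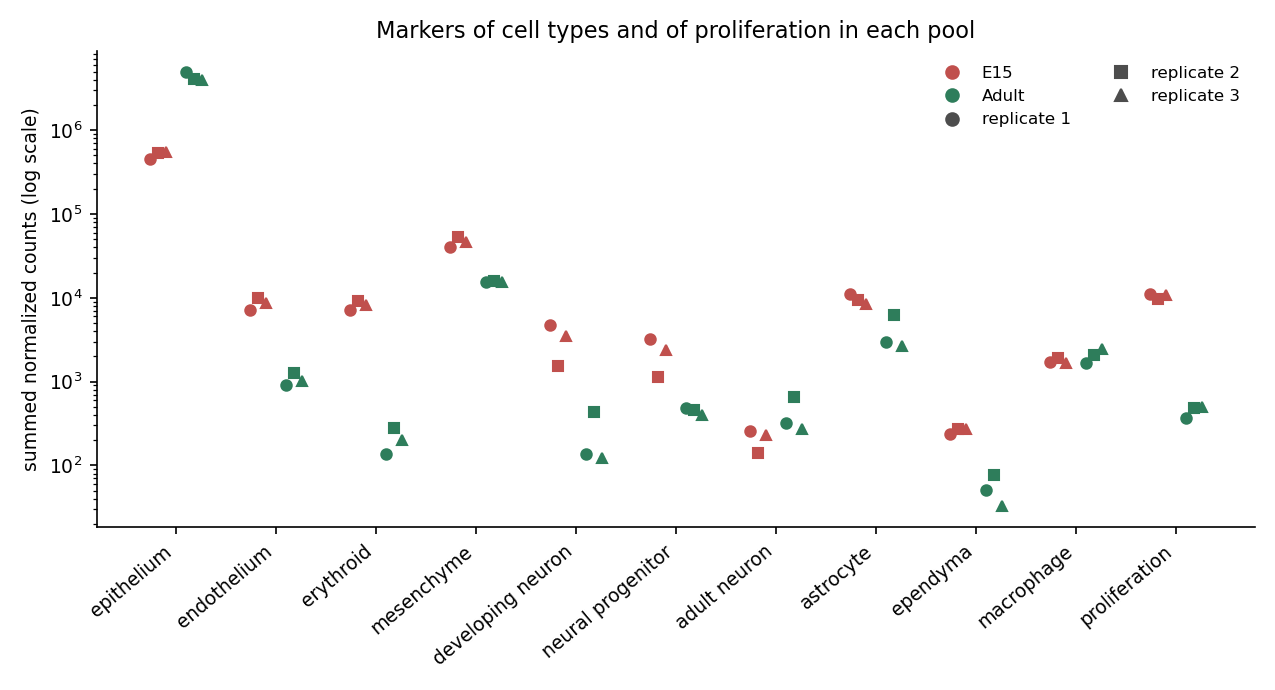
Summed normalized counts (log scale, vertical axis) of 11 marker lists in each pool, with E15 in red, adult in green and a marker shape for each replicate number. The epithelial sum is higher in every adult pool, and the proliferation, endothelial and erythroid sums are higher in every E15 pool.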

How the data were processed

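RNA of whole lateral ventricular choroid plexus was sequenced in 6 libraries, 3 pools at E15 and 3 in the adult. The deposited values are raw counts per gene, which the authors made with HTSeq 0.4.7p4 in union mode. These counts rest on trimmed reads with a single place in Ensembl's rat assembly, found with Bowtie 0.12.7. Whether counting used the strand is not stated in the sources used here. The authors' comparison table (edgeR 2.4.0) holds the statistics of their own test, which were not used; only its gene names were read, so genes without a name there could not be looked up. Of 29479 identifiers, 9296 were at 0 in all libraries and 10093 carried a name.

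Counts were fitted in edgeR 4.0.16 (R 4.3.3) with TMM factors, over the 16643 genes with more than 10 counts in all, by the quasi-likelihood F test with age as the only term and Benjamini-Hochberg adjustment, at a threshold of 0.05. Positive log2 values are higher at E15, and an SE is the size of the log2 change over the square root of F. Ratios of clock genes were tested by a two-sided exact permutation test in scipy 1.17.1, and tables and plots used Python 3.11.15, numpy 2.4.6, pandas 2.3.3 and matplotlib 3.10.9. The procedure was tested on simulated data. Floors of 3 counts and exact 95% intervals cover counting error only. Alternatives were RLE and upper quartile factors, total counts, totals that leave out the 10 genes of highest mean count, filterByExpr, no filter, DESeq2 1.42.0, limma-voom (limma 3.58.1), the edgeR exact test, a replicate block, leaving out each library, and 1 added to each count for ratios. Named genes are the listed clock genes, genes of the other lists called with an absolute log2 change above 1, a fixed set of core loop genes, and the 3 genes of most like pattern for the clock gene with the largest change in each direction. The result of 1 marker list is not reported here. The members and lists were chosen with earlier results of these data known.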

Additional observations from a re-analysis of the deposited data

How the results depend on the processing

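The 7 clock genes kept their direction and their side of the threshold under all 16 alternatives (112 of 112 values). Their log2 changes ranged from 1.18 to 2.07 for *Per1*, 0.75 to 1.66 for *Per3*, -1.65 to -0.68 for *Arntl*, -1.97 to -1.05 for *Clock*, -4.22 to -3.33 for *Npas2*, -1.73 to -0.72 for *Dbp* and -1.83 to -0.84 for *Tef*, with the highest value on total counts for each. The largest adjusted p was 0.0223 (*Per3* without adult replicate 1). Total counts gave 9799 genes called higher at E15 and 2292 in the adult, and totals without the 10 genes of highest mean count 8071 and 3196, since these scalings move all genes toward E15 (medians of 0.94 and 0.60 against 0.14). On total counts *Cdkn1a* and *Nr3c1* were only 1.36-fold and 1.39-fold higher in the adult, and *Csnk1d* was 2.56-fold higher at E15. Upper quartile factors moved the median to 0.26. Leaving out 1 library gave 5009 to 6218 genes higher at E15 and 4327 to 5449 in the adult. With replicate number as a block, 5320 and 4608 genes were called and *Per1* was at 1.25; deviations of same-numbered pools correlated across genes at only -0.0227, 0.023 and -0.108, so the numbers give no sign of pairing. Of 557 values of 35 other named genes 553 kept direction and call. The exceptions were *Ciart* (-1.23 by the exact test of edgeR, -2.04 without E15 replicate 1), and *Vipr2* (-0.42) and *Mt1a* (-0.23) on total counts. There was no value for *Avp* with filterByExpr or without adult replicate 3, nor for *Avpr1a* with filterByExpr. Of 42 ratio values 40 kept their direction. The *Dbp*/*Arntl* difference ran from -0.37 to 0.34 when 1 library was left out and changed sign to 0.21 without E15 replicate 1 and to 0.34 without adult replicate 2; the cause was not tested. The 4 planned ratios with *Per2*, *Cry1* or *Cry2* could not be computed. Genes near 0 counts, such as *Avp*, *Rgs16* and *Prokr1*, are limited by depth. The design is 3 pools an age, time of collection is not known here, and age cannot be told apart from cell composition in bulk RNA.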
